A study of Homo sapiens with 52 samples.

Results

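The matrix proteases and their inhibitors described here are the human genes whose symbol is MMP, ADAMTS or TIMP followed by a number. They came to 45 of the 59408 genes in the 25 tables of the series: 22 matrix metalloproteinases (MMP), 19 secreted proteases with thrombospondin motifs (ADAMTS) and 4 tissue inhibitors of metalloproteinases (TIMP). Of these, 28 reached a mean level of at least 10 normalized reads over the groups and were tested (10 MMP, 14 ADAMTS and all 4 TIMP genes), and the other 17 are given by their counts near the end. The cells were WI-38, an established line of normal fibroblasts from human embryonic lung, with a finite life span in culture. Senescence was induced in young cells by a treatment of 24 h with 0.0090% sodium dodecyl sulfate, a detergent that damages the plasma membrane (PMD-Sen), with KCl at 75 mM, a salt load under which calcium enters (Ca2+-Sen), or with 250 nM doxorubicin, which breaks DNA and starts the DNA damage response (DDR-Sen). Cells were then washed and kept in normal medium, and poly(A) RNA was sequenced on the day of the wash (day 0), on days 1 to 4, and then on days 6, 8 and also 16. Young untreated cells and cells at the end of their replicative life span (replicative senescence, RS) completed the 26 groups, each with 2 libraries and all from the same cell line.

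MMPs and ADAMTSs are zinc-dependent endopeptidases that cut the proteins around the cell. Collagenases such as MMP1 open fibrillar collagen, stromelysins such as MMP3 and MMP10 cut proteoglycans and other proteases, gelatinases such as MMP2 degrade denatured and basement membrane collagen, and membrane-type MMPs act at the cell surface, where MMP14 activates MMP2. Among the ADAMTSs, one branch cleaves aggrecan and versican, another removes the amino-terminal propeptide of procollagen, and others act on cartilage oligomeric matrix protein or on fibrillin microfibrils. TIMPs bind the active site of MMPs, and TIMP3 also inhibits several ADAMTSs. Secreted proteases of this kind are a well known part of the senescence-associated secretory phenotype of fibroblasts.

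Levels are given as normalized reads of each library, on a scale common to all tables. Changes are log2 fold changes against the untreated cells with their standard error (SE), and a gene was called where the adjusted p of the Wald test (Benjamini-Hochberg over the 14898 genes tested in the series) was under 0.05. The verbs rose and fell are kept for called genes. Every comparison used the same 2 untreated libraries, so an error in these enters all of them. The untreated cells have no day in the labels, and no untreated group was sampled along the courses. Time in culture and the treatment thus cannot be told apart in a change against untreated cells. The methods of the study call the samples of a group independent and the labels do not say more. The p-values rest on DESeq2's estimate of the spread within the 2 treated and the 2 untreated libraries of a comparison. How far that covers other cultures is not known. In such bulk RNA, fewer cells that express a gene and less of its RNA per cell cannot be told apart. Counted reads came to 15.4 and 18.8 M in the untreated libraries, 58.0 and 45.2 M in RS and 19.1 to 53.5 M in the others. All 10 fibroblast markers stood at 10 normalized reads or more in every group, with a summed level between 428133 (Ca2+-Sen day 0) and 978875 (DDR-Sen day 1). Of the epithelial markers only KRT8 and KRT19 did so, and the epithelial sum ranged from 769.7 to 2789 normalized reads. The 4 endothelial markers summed to 26.8 to 175.3 normalized reads, highest on Ca2+-Sen day 0, where PECAM1 reached 107.6. The 5 leukocyte markers summed to 14.1 to 205.3, highest on Ca2+-Sen day 8, where CD14 reached 203.1. PTPRC reached 19.7 on DDR-Sen day 2, while CD68, LYZ and CD3E stayed under 10 in every group. The part of these markers in the results was not tested.

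Upstream sequence is shown for 4 members because they carry the main courses described below: a stromelysin that was low on day 8, a membrane protease highest on day 1 of PMD-Sen, an inhibitor highest on day 1 of each inducer, and an ADAMTS that went from low on day 0 to high on day 16. Each line holds the 100 bases before the RefSeq start (GRCh38.p14), read 5′ to 3′ on the strand of the gene, and capitals mark the letters TATAAA. MMP10 lies on the minus strand, at chr11:102780629-102780728. The others lie on the plus strand, MMP14 at chr14:22836485-22836584, TIMP1 at chrX:47582336-47582435 and ADAMTS19 at chr5:129460198-129460297.
MMP10: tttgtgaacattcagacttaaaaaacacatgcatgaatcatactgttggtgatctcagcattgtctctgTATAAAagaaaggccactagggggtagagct
MMP14: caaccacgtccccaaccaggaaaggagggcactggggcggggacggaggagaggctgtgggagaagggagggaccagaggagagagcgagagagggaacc
TIMP1: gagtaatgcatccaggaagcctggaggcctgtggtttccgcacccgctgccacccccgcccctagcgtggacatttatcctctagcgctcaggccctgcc
ADAMTS19: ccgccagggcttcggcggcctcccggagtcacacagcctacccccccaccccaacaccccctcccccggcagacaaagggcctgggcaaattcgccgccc
Promoters of 26 members were matched by symbol, 15 of them tested. MMP1 and MMP3 had no promoter entry, so their upstream letters were not searched. In the 250 bases before the start, TATAAA on either strand was found in 7 of the 26, among them MMP10 (31 bases before the start) and ADAMTS10 as the 2 tested ones, and in 11.1% of 27305 promoters. The AP-1 element TGACTCA, or TGAGTCA, was found in 1 of the 26, MMP7, and in 4.16% of all promoters. A match describes the letters only. MMP10, MMP1 and MMP3 are neighbours in a cluster of 9 MMP genes within 435 kb of chromosome 11 (102520508 to 102955732 in GRCh38.p14), ADAMTS8 and ADAMTS15 lie 20.0 kb apart on the same chromosome, and ADAMTS1 and ADAMTS5 lie 72.5 kb apart on chromosome 21.

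In untreated cells TIMP1, TIMP2, TIMP3 and a few proteases made up most of the signal. Per kilobase of exon, TIMP1 was highest with 13338 normalized reads, followed by TIMP3 (4392), MMP2 (4089), TIMP2 (3999) and MMP14 (3420), with MMP1 (2208) and ADAMTS1 (1819) next and each of the other 21 tested members under 414 per kilobase. At the low end stood MMP24 (11.7), ADAMTS3 (7.59) and ADAMTS4 (3.31). TIMP3, MMP2 and TIMP2 are close neighbours in this order, and exon length as annotated (GENCODE v29) rather than the transcript in use sets their rank.

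Over the 25 comparisons with untreated cells, 289 of 700 tests of a member were called, 161 higher and 128 lower (23.0% and 18.3%), where of all genes tested 8.94% were higher and 10.4% lower. The MMP genes gave 47 higher and 35 lower of 250, the ADAMTS genes 76 and 85 of 350, and the TIMP genes 38 and 8 of 100. The heat map of log2 fold changes shows early and late columns of opposite sign for many ADAMTS genes.

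**Figure D1:**
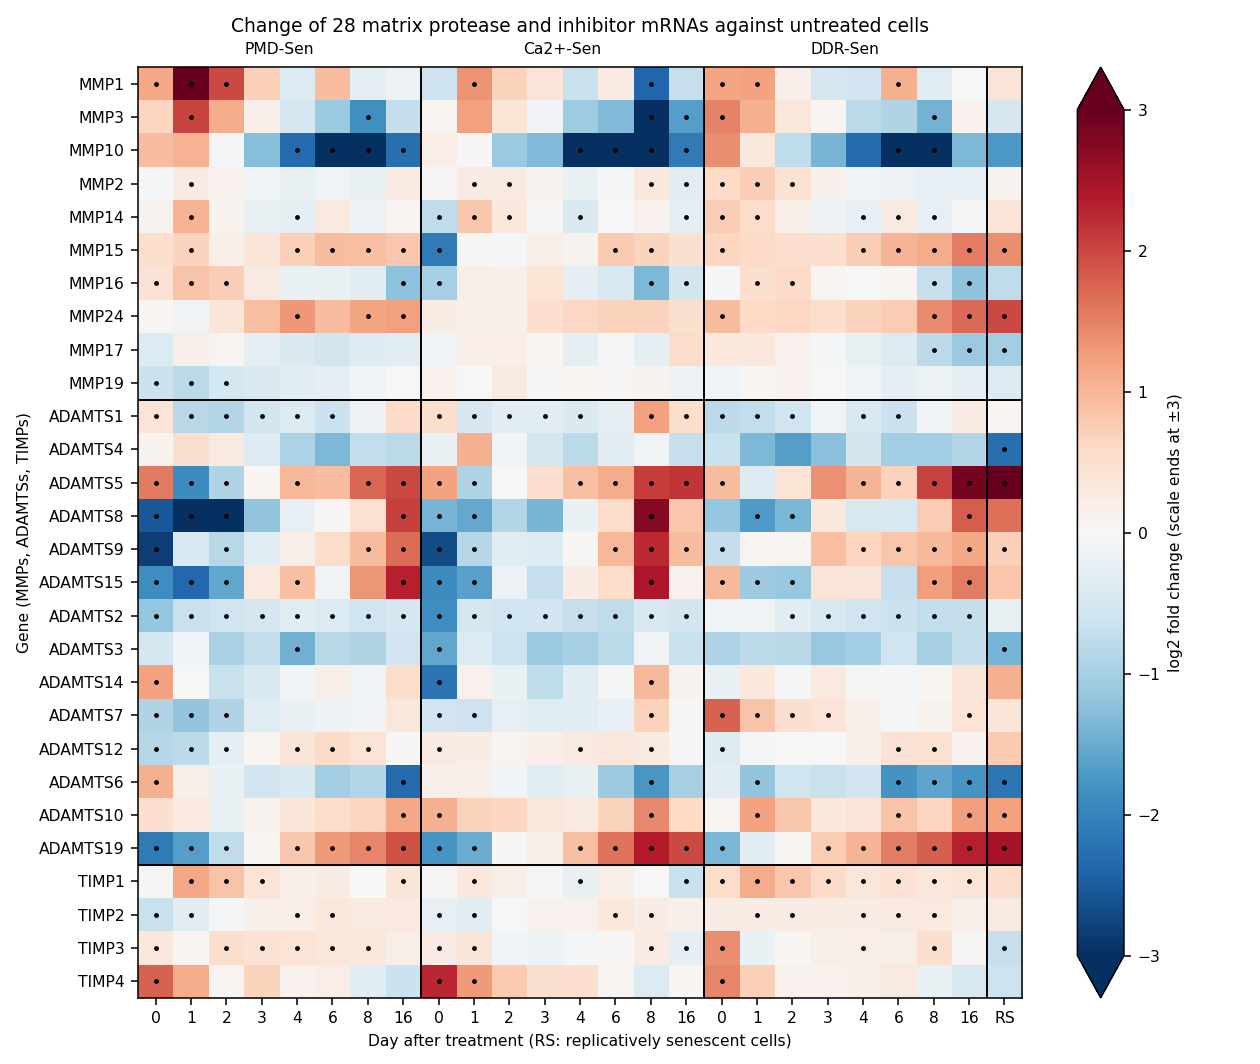
Log2 fold change against untreated cells (colour) of the 28 tested members (rows) in the 24 treated groups and RS (columns), with calls marked. ADAMTS19, ADAMTS9 and ADAMTS15 are lower on day 0 of PMD-Sen and Ca2+-Sen and higher on day 8 of Ca2+-Sen, while MMP10 is lowest on day 8.

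On day 0 of PMD-Sen, 8 members were called higher and 9 lower of 28, where 19.8% and 20.2% of all tested genes were. On day 0 of Ca2+-Sen these were 6 and 12 (all genes 23.6% and 26.5%), and on day 0 of DDR-Sen 12 and 4 (all genes 12.9% and 14.9%). On day 1 the counts were 7 and 10 for PMD-Sen (all genes 9.63% and 10.0%), 6 and 9 for Ca2+-Sen (all genes 5.34% and 7.13%) and 8 and 4 for DDR-Sen (all genes 8.50% and 11.0%). On day 8 of Ca2+-Sen 14 members were called higher and 6 lower (all genes 15.5% and 17.8%). By day 16, PMD-Sen had 9 higher and 4 lower (all genes 9.63% and 11.5%), Ca2+-Sen 4 and 8 (all genes 5.79% and 6.08%), DDR-Sen 10 and 4 (all genes 13.2% and 16.7%), and RS 6 and 5 (all genes 11.6% and 11.5%). Leaving out 1 library moved 3 of these totals by over 1.5 times: without the larger untreated library 7 members were called on day 1 of DDR-Sen and 7 in RS, and without the smaller untreated or the smaller treated library 8 on day 16 of PMD-Sen. Whether the expression level of the members bears on the share of them called was not tested. The median log2 fold change of the members was 0.24 on day 8 of Ca2+-Sen, 0.21, 0.04 and 0.13 on day 16 of PMD-Sen, Ca2+-Sen and DDR-Sen, and 0.31 in RS, and the median of all genes lay within 0.04 of 0 in every comparison.

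The collagenase MMP1 was called higher on day 1 with every inducer, and the stromelysins MMP3 and MMP10 were called lower on day 8 with every inducer. MMP1 stood at 3243 and 5458 normalized reads in the untreated libraries and at 46184 and 46357 on day 1 of PMD-Sen, above both. This was a rise of 10.6-fold, or 3.41 ± 0.37 on the log2 scale (SE; adjusted p = 1.46e-18). Its libraries on the days around it stood at 9744 and 9802 (day 0) and 15869 and 18212 (day 2), rises of 1.17 ± 0.37 and 1.97 ± 0.38. On day 1 the other inducers gave less MMP1, 10454 and 11855 in Ca2+-Sen (1.36 ± 0.38) and 9759.8 and 10281 in DDR-Sen (1.20 ± 0.37). PMD-Sen exceeded Ca2+-Sen by 2.05 ± 0.53 (adjusted p = 0.0045) and DDR-Sen by 2.21 ± 0.52 (adjusted p = 0.000445). Without the larger untreated library the rises on day 0 of PMD-Sen and on day 1 of Ca2+-Sen and DDR-Sen were 0.84, 1.03 and 0.88 and were no longer called, and the one of Ca2+-Sen day 1 was lost without its smaller library as well (1.26). The rises on days 1 and 2 of PMD-Sen were called with any 1 library left out.

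After day 2 MMP1 was called in 2 groups. On day 6 of DDR-Sen its libraries reached 7953 and 10269, a rise of 1.07 ± 0.41 that was lost without the larger untreated library (0.74) and without either treated library. On day 8 of Ca2+-Sen both libraries were under all others of the inducers, at 830.2 and 850.0, a fall of 5.18-fold (log2 -2.37 ± 0.36, adjusted p = 1.12e-09) that remained called with any 1 library left out. On day 8 the other inducers stood at 2749.6 and 4356 (PMD-Sen) and 3371 and 3399 (DDR-Sen), and Ca2+-Sen was lower than PMD-Sen by 2.08 ± 0.61 and than DDR-Sen by 2.01 ± 0.52.

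MMP3, stromelysin-1, followed MMP1 on day 1. Its untreated libraries held 557 and 1138 normalized reads and its PMD-Sen day 1 libraries 3094 and 3798, a rise of 2.02 ± 0.52 that became 1.60 and lost its call without the larger untreated library, and 2.63 without the smaller. On the same day MMP3 measured 1.24 ± 0.50 in Ca2+-Sen and 1.07 ± 0.50 in DDR-Sen, neither of them called, although all 4 of these libraries lay above the untreated ones, at 1876 and 2118 and 1648 and 1909. It rose on day 0 of DDR-Sen (2149 and 2568 normalized reads, 1.48 ± 0.51), a call lost without the larger untreated library (1.05) or the larger treated one (1.34).

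On day 8 MMP3 was low under every inducer. Its libraries stood at 194 and 278 in PMD-Sen, 84.1 and 98.0 in Ca2+-Sen and 292 and 341 in DDR-Sen, all under both untreated libraries. The falls were -1.85 ± 0.55, -3.22 ± 0.52 and -1.42 ± 0.50, and on day 16 MMP3 was called lower in Ca2+-Sen as well (247 and 289 normalized reads, -1.66 ± 0.50). The fall on day 8 of Ca2+-Sen was called with any 1 library left out and was -2.62 to -3.64 without one or the other untreated library. Without the smaller untreated library those of PMD-Sen day 8, DDR-Sen day 8 and Ca2+-Sen day 16 were -1.24, -0.82 and -1.06 and lost their calls. These calls were also lost without the larger treated library in PMD-Sen, the smaller in Ca2+-Sen and either in DDR-Sen.

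MMP10, stromelysin-2, fell most of all members. It measured 28.3 and 138 normalized reads in the untreated libraries, which differed by 4.87-fold, and 172 and 172 on day 1 of PMD-Sen (1.05 ± 1.00, not called). From there the PMD-Sen libraries went through 74.2 and 88.7 (day 2), 32.0 and 36.2 (day 3), 11.3 and 22.1 (day 4) and 8.18 and 9.85 (day 6) to 2.23 and 4.97 on day 8. All 10 calls of this gene were falls, on days 4, 6, 8 and 16 of PMD-Sen and Ca2+-Sen and on days 6 and 8 of DDR-Sen. On day 8 the log2 fold change was -4.63 ± 0.81 in PMD-Sen, -5.61 ± 0.91 in Ca2+-Sen, where the libraries held 1.46 and 1.91 normalized reads, and -3.56 ± 0.72 in DDR-Sen, with 5.37 and 8.71. By day 16 the libraries stood at 7.71 and 27.0 in PMD-Sen and 16.3 and 21.8 in Ca2+-Sen, above those of day 8, and at 7.20 and 57.9 in DDR-Sen, where they overlapped those of day 8.

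The size of these falls hangs on the untreated pair. Without the smaller untreated library the MMP10 change on day 8 was -3.09 in PMD-Sen, -4.06 in Ca2+-Sen and -2.02 in DDR-Sen, and without the larger one it was -5.37, -6.34 and -4.30. Only the PMD-Sen and Ca2+-Sen values of day 8 were called under every such omission, and the other 8 calls were lost without the smaller untreated library. Those of PMD-Sen days 4 and 16 and of Ca2+-Sen day 16 were also lost without 1 of their treated libraries. The day 8 levels themselves were under the lower untreated library in all 6 treated libraries.

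**Figure D2:**
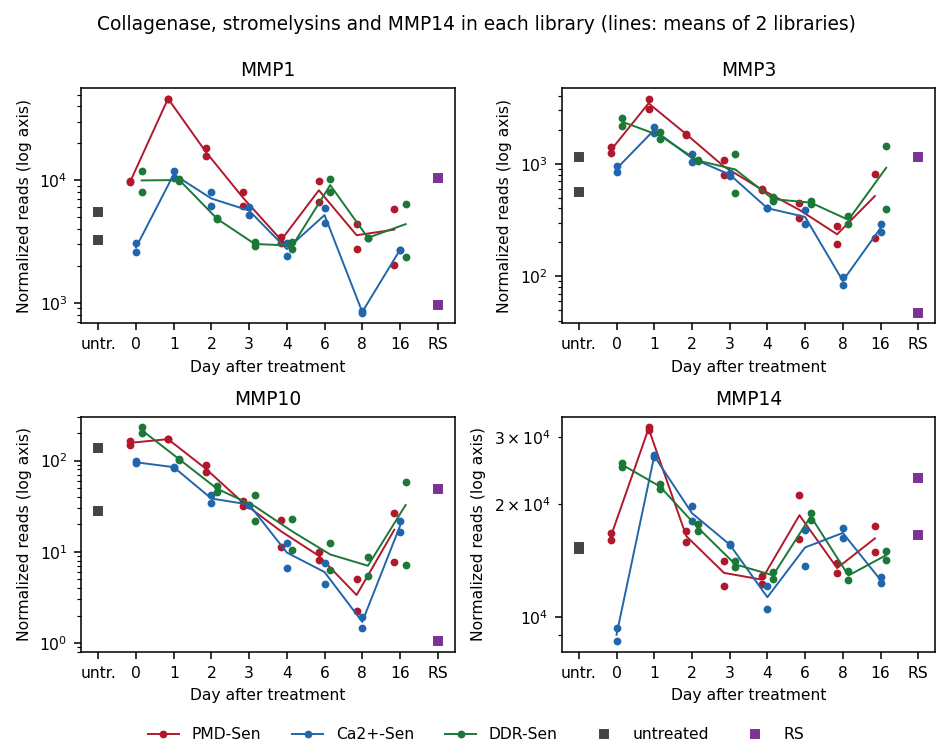
Normalized reads (log axis) of MMP genes by day after the wash, with points for the single libraries, lines for the group levels, and the untreated and RS libraries at the sides. MMP1 peaks on day 1 of PMD-Sen (46184 and 46357 normalized reads), and the 2 RS libraries of MMP1, MMP3 and MMP10 stand far apart.

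The 3 largest ratios between the libraries of a group, over all tested members, belonged to these 3 neighbours in RS. In RS, MMP1 stood at 953 and 10494 normalized reads, MMP3 at 47.5 and 1155 and MMP10 at 1.04 and 49.2, ratios of 11.0, 24.3 and 47.2, and the same RS library was the higher in all 3. One RS library thus lay above both untreated libraries for MMP1 and the other below both. None of the 3 was called in RS, with log2 fold changes of 0.40 ± 1.42, -0.50 ± 1.72 and -1.72 ± 2.05. On day 16, the libraries differed by 2.87-fold (MMP1), 3.72-fold (MMP3) and 3.50-fold (MMP10) in PMD-Sen, and by 2.72-, 3.68- and 8.04-fold in DDR-Sen. In Ca2+-Sen on day 16 the 2 libraries of MMP1 were close, at 2683 and 2716 normalized reads. The library with more MMP1 was the one with more MMP3 in 21 of 26 groups and the one with more MMP10 in 22 of 26, against a median of 14 of 26 over all pairs of tested members. For MMP3 and MMP10 the count was 19 of 26. Pairs on separate chromosomes also reached 22 of 26, TIMP2 with TIMP4 and ADAMTS7 with MMP19. The RS means of MMP1, MMP3 and MMP10, and their day 16 means in PMD-Sen and DDR-Sen, thus stand between libraries that lie far apart.

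Among the MMPs of the cell surface, MMP14, which activates MMP2, was highest on day 1 in PMD-Sen and Ca2+-Sen and on day 0 in DDR-Sen. Its libraries stood at 15189 and 15343 normalized reads in untreated cells, 31378 and 31897 in PMD-Sen, 26620.5 and 26908 in Ca2+-Sen and 21913 and 22549.5 in DDR-Sen on day 1, all 6 above the untreated ones. The rises were 1.05 ± 0.07 (adjusted p = 1.1e-43), 0.81 ± 0.07 and 0.54 ± 0.08, and each was called with any 1 library left out. One day earlier the inducers had differed: MMP14 was at 8645 and 9362 in Ca2+-Sen, a fall of 1.70-fold, at 25061 and 25694 in DDR-Sen, a rise of 1.66-fold, and at 16049 and 16747 in PMD-Sen (0.10 ± 0.09). From day 3 on all changes of MMP14 were under 0.5 on the log2 scale.

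MMP2, gelatinase A, changed little on the log2 scale. It stood at 18924 and 21419.7 normalized reads in untreated cells and rose on days 0 to 2 of DDR-Sen, with libraries at 28874 and 31894, 30841 and 36453 and 26319.9 and 29372. The largest of these rises was 0.74 ± 0.10 on day 1 (adjusted p = 5.78e-12). On the same day PMD-Sen (0.23 ± 0.09) and Ca2+-Sen (0.26 ± 0.08) moved less. Both calls were lost without the smaller untreated library (0.14 and 0.17) or the larger treated one. On day 16 of Ca2+-Sen MMP2 was under both untreated libraries, at 15936 and 16095 (-0.33 ± 0.08), a call lost without the larger untreated library (-0.24).

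The other transmembrane members, MMP15, MMP16 and MMP24, took separate courses. MMP15 stood at 166 and 216 normalized reads untreated and fell to 40.4 and 48.3 on day 0 of Ca2+-Sen (-2.11 ± 0.31, adjusted p = 5.71e-11). It was called higher on days 1, 4, 6, 8 and 16 of PMD-Sen, on days 6 and 8 of Ca2+-Sen, on days 0, 4, 6, 8 and 16 of DDR-Sen and in RS. Its level was highest on day 16 of DDR-Sen, with 524 and 578 (1.53 ± 0.22), and in RS, with 446 and 552 (1.39 ± 0.26), and both calls held with any 1 library left out. The rise on day 16 of PMD-Sen (0.80 ± 0.25) was lost without the larger untreated library (0.62) or the larger treated one.

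MMP24 rose from a low level, 49.2 and 54.0 normalized reads, to 130.0 and 205 on day 16 of DDR-Sen (1.70 ± 0.37) and 199 and 210.3 in RS (1.99 ± 0.31, adjusted p = 8.17e-09). It was also called higher on day 0 of DDR-Sen (0.94 ± 0.35) and on day 8 of PMD-Sen (1.17 ± 0.37), calls that were each lost with any 1 of the 4 libraries left out, and on day 8 of DDR-Sen (1.41 ± 0.37). In PMD-Sen it was further called on days 4 and 16, with 118 and 124 on day 16 (1.23 ± 0.38), a call lost without the larger untreated library (1.16). In Ca2+-Sen it was never past the threshold and measured 0.48 ± 0.42 on day 16. MMP16 went the other way. It stood at 554 and 645 normalized reads untreated, rose in PMD-Sen on day 1 to 1057 and 1122 (0.86 ± 0.14) and was under both untreated libraries on day 16, at 175 and 331 in PMD-Sen (-1.24 ± 0.29) and 208 and 312 in DDR-Sen (-1.20 ± 0.22). The fall in PMD-Sen was lost without the smaller day 16 library (-0.86). In Ca2+-Sen it was lowest on day 8, at 233 and 237 (-1.35 ± 0.17).

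MMP17, which is held in the membrane by a lipid anchor, fell only at the end of the DDR-Sen course and in RS. Its untreated libraries held 202 and 212 normalized reads, those of DDR-Sen day 16 84.4 and 108 (-1.11 ± 0.29) and those of RS 68.9 and 130.2 (-1.05 ± 0.39). The call in RS was lost without either untreated library (-1.08 and -1.02) and without the smaller RS library, and the call of DDR-Sen day 8 (-0.78 ± 0.27) without any 1 of the 4. On day 16 of Ca2+-Sen it was at 298 and 305 (0.54 ± 0.21, not called), higher than in DDR-Sen by 1.65 ± 0.36 (adjusted p = 0.000235). MMP19, a secreted MMP of basement membranes, was called in PMD-Sen alone, on days 0, 1 and 2, with libraries at 366 and 440.3 on day 1 against 658 and 751 untreated (-0.80 ± 0.17). On day 1 it was lower in PMD-Sen than in Ca2+-Sen by -0.80 and than in DDR-Sen by -0.86 on the log2 scale, both called, so the difference holds between the inducers as well.

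Of the 6 ADAMTSs that cleave aggrecan and versican, ADAMTS5 changed direction between day 0 and day 1 under 2 inducers and was high at the end under all. Its untreated libraries were nearly equal, at 351 and 353 normalized reads. On day 0 it stood above them, at 815 and 1246 in PMD-Sen (1.55 ± 0.20), 771 and 859 in Ca2+-Sen (1.21 ± 0.15) and 648 and 712 in DDR-Sen (0.95 ± 0.16). On day 1 it was below them, at 90.5 and 98.0 in PMD-Sen, a fall of 3.75-fold (-1.91 ± 0.24, adjusted p = 1.11e-13), and at 177 and 191 in Ca2+-Sen (-0.94 ± 0.20), while DDR-Sen, at 271 and 272, was not called (-0.38 ± 0.19). On day 1 PMD-Sen was lower than Ca2+-Sen by -0.97 and than DDR-Sen by -1.53 on the log2 scale, both called.

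From day 4 ADAMTS5 was above both untreated libraries in all but the day 6 PMD-Sen group, whose libraries lay apart at 294 and 1046. On day 16 it reached 1379.6 and 1384 in PMD-Sen (1.97 ± 0.17), 1537 and 1592 in Ca2+-Sen (2.15 ± 0.13) and 2079.9 and 3099 in DDR-Sen (2.88 ± 0.18). RS was highest, at 1774 and 4528, a rise of 8.95-fold (3.16 ± 0.40, adjusted p = 1.33e-13) that was 2.33 or 3.69 without one or the other RS library. Of the 18 calls of this gene, 17 were made with any 1 library left out.

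ADAMTS1, its neighbour on chromosome 21, is far more abundant, with 12733 and 12962 normalized reads untreated, and shared its day 0 and day 1 signs under the membrane and calcium inducers. It rose on day 0 of PMD-Sen (16858 and 17526, 0.42 ± 0.09) and Ca2+-Sen (18116 and 19011, 0.53 ± 0.07), but fell on day 0 of DDR-Sen (6604 and 8262, -0.79 ± 0.12). DDR-Sen was lower than PMD-Sen by 1.21 ± 0.15 and than Ca2+-Sen by 1.32 ± 0.14, both called. On day 1 it was under both untreated libraries with all 3, at 7176 and 7330.3, 8637 and 9451 and 7636 and 7643. On day 8 of Ca2+-Sen it rose to 29426 and 30699 (1.23 ± 0.07, adjusted p = 1.15e-71), above every other library measured, whereas PMD-Sen (-0.16 ± 0.14) and DDR-Sen (-0.07 ± 0.09) were not called.

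ADAMTS8, ADAMTS9 and ADAMTS15 fell on day 0 of PMD-Sen and Ca2+-Sen and rose on day 8 of Ca2+-Sen and on day 16 of PMD-Sen and DDR-Sen. ADAMTS9 stood at 239 and 286 normalized reads in untreated cells and at 33.2 and 40.4 on day 0 of PMD-Sen (-2.84 ± 0.33, adjusted p = 2.51e-16) and 28.0 and 56.1 on day 0 of Ca2+-Sen (-2.68 ± 0.33). It was at 1141 and 1329 on day 8 of Ca2+-Sen (2.24 ± 0.16), its highest level, and at 708 and 963, 470.4 and 521 and 556 and 618 on day 16 of PMD-Sen, Ca2+-Sen and DDR-Sen. The day 16 rises were 1.67 ± 0.23, 0.92 ± 0.19 and 1.16 ± 0.20, each called with any 1 library left out. In RS the rise of 0.71 ± 0.24 was lost without the larger untreated library (0.58) or the larger RS library (0.57).

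ADAMTS8 measured 786 and 1446 normalized reads untreated and fell to 67.2 and 74.7 on day 1 of PMD-Sen, 15.8-fold lower (-3.98 ± 0.46, adjusted p = 2.37e-16). The falls on day 1 of Ca2+-Sen (357 and 412, -1.54 ± 0.43) and DDR-Sen (289.9 and 395, -1.70 ± 0.48) were smaller than that of PMD-Sen by -2.44 and -2.27 on the log2 scale (PMD-Sen minus the other, both called), and both were lost without the larger untreated library (-1.03 and -1.20) or the smaller treated one. On day 8 of Ca2+-Sen ADAMTS8 rose to 7375 and 7792 (2.76 ± 0.43), while PMD-Sen held 685 and 2388 (0.46 ± 0.92) and DDR-Sen 1773 and 1999 (0.76 ± 0.44). On day 16 it rose in PMD-Sen (2883 and 6411, 2.06 ± 0.69) and DDR-Sen (3092 and 4770.3, 1.82 ± 0.53), and both calls were lost without the smaller untreated library (1.69 and 1.44) or the smaller treated one (1.37 and 1.47). In RS its libraries stood at 1168 and 5899.9, 5.05-fold apart, the lower between the untreated libraries and the higher above both (1.66 ± 1.06, not called).

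ADAMTS15, the neighbour of ADAMTS8, stood at 121 and 182 normalized reads untreated and at 28.9 and 30.3 on day 1 of PMD-Sen (-2.36 ± 0.39) and 48.6 and 50.3 in Ca2+-Sen (-1.62 ± 0.34). On day 8 of Ca2+-Sen it rose to 782 and 872 (2.43 ± 0.19, adjusted p = 3.53e-34), and by day 16 it had returned to 162 and 172 (0.13 ± 0.28). PMD-Sen and DDR-Sen were high on day 16, at 471 and 1051 (2.32 ± 0.35) and 369 and 518 (1.54 ± 0.26), above Ca2+-Sen by 2.19 ± 0.45 and by 1.41 ± 0.39, both called. Without the smaller PMD-Sen day 16 library the rise was 1.63, and without the larger 2.79. The library with more ADAMTS8 was the one with more ADAMTS15 in 21 of 26 groups. Pairs on separate chromosomes reached such counts too, ADAMTS8 with MMP19 in 21 of 26 and ADAMTS7 with MMP19 in 22 of 26. ADAMTS4, known as aggrecanase-1, was at most 71.5 normalized reads on average in a group and was called once, in RS, with libraries at 5.74 and 8.55 against 31.5 and 36.9 untreated (-2.25 ± 0.67), a call lost without the smaller RS library (-2.00).

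**Figure D3:**
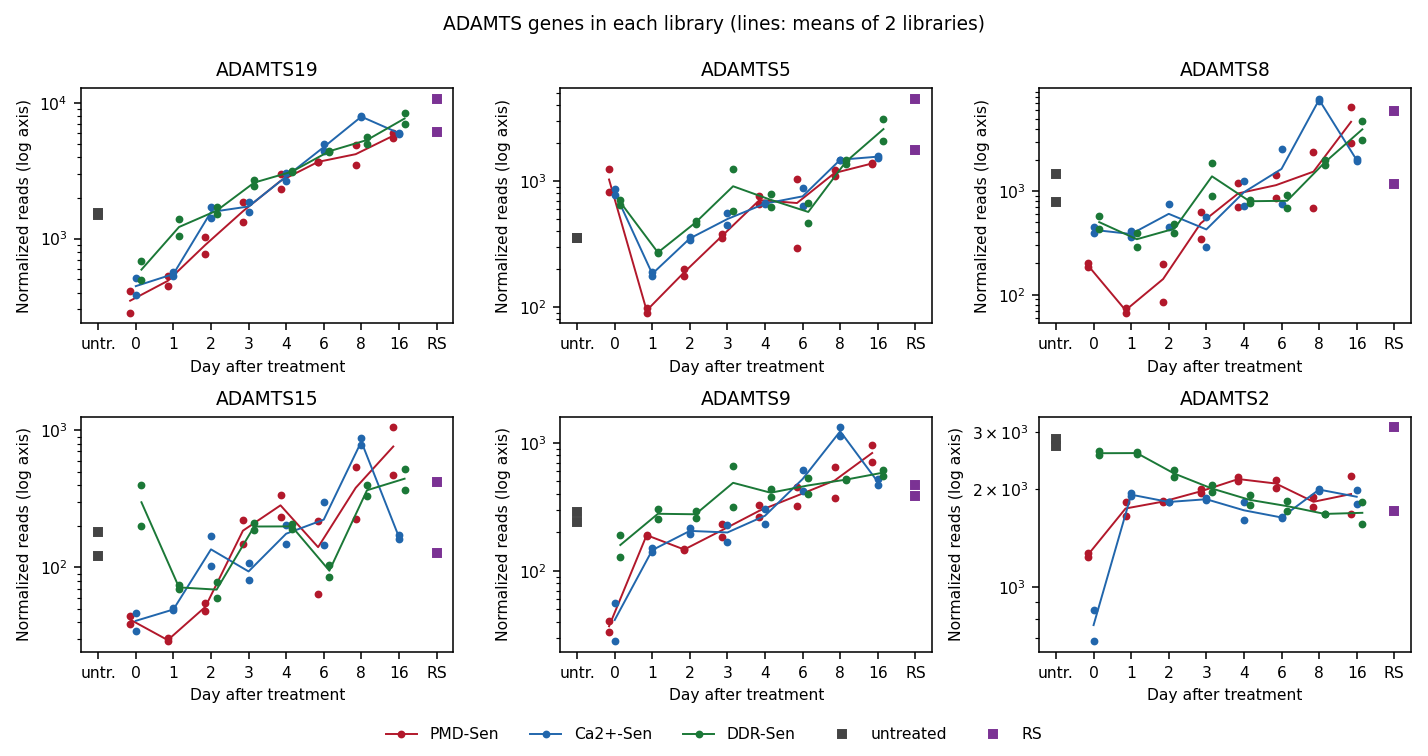
Normalized reads (log axis) of ADAMTS genes by day after the wash, with points for the single libraries, lines for the group levels, and the untreated and RS libraries at the sides. ADAMTS19 climbs from at most 684 normalized reads on day 0 to 5493 or more on day 16 under every inducer.

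The procollagen N-proteinases ADAMTS2, ADAMTS3 and ADAMTS14, which trim the propeptide of fibrillar procollagens, were not called higher on day 16 or in RS. ADAMTS2 was called lower in 22 of 25 comparisons and higher in none, the exceptions being days 0 and 1 of DDR-Sen and RS. Its libraries stood at 2721 and 2858 normalized reads untreated, at 682 and 852 on day 0 of Ca2+-Sen (-1.87 ± 0.12, adjusted p = 1.9e-50), its lowest, and at 1242 and 1274 on day 0 of PMD-Sen (-1.15 ± 0.11). On day 16 it held 1676 and 2193 (-0.53 ± 0.17), 1802 and 1992 (-0.56 ± 0.10) and 1563 and 1824 (-0.72 ± 0.13) in PMD-Sen, Ca2+-Sen and DDR-Sen. Of the 22 calls, 19 were made with any 1 library left out, and that of PMD-Sen day 16 was lost without the smaller untreated library (-0.49) or the larger treated one (-0.35).

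ADAMTS14 separated the inducers on day 0. It stood at 72.0 and 99.7 normalized reads untreated, 167 and 229 in PMD-Sen (1.20 ± 0.33), 17.0 and 20.3 in Ca2+-Sen (-2.22 ± 0.45) and 72.7 and 75.2 in DDR-Sen (-0.22 ± 0.34). PMD-Sen exceeded Ca2+-Sen by 3.42 ± 0.56 (adjusted p = 1.16e-08), with no overlap of their libraries with each other or with the untreated ones. On day 8 it was called higher in Ca2+-Sen (158 and 181, 0.98 ± 0.30), a call lost without the smaller untreated library (0.77). ADAMTS3 stood at 50.5 and 58.5 untreated, and its log2 fold change was below 0 in all 25 comparisons. It was called on day 0 of Ca2+-Sen (17.8 and 19.5, -1.55 ± 0.51), in RS (-1.40 ± 0.53) and on day 4 of PMD-Sen (-1.45 ± 0.53), of which only the first was called with any 1 library left out.

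ADAMTS7 and ADAMTS12 both cleave cartilage oligomeric matrix protein. ADAMTS7 rose with doxorubicin and fell with the other inducers. On day 0 its libraries stood at 2062 and 2769 normalized reads in DDR-Sen, 339 and 424 in PMD-Sen and 466 and 489 in Ca2+-Sen, against 689 and 732 untreated. The changes were 1.77 ± 0.16 (adjusted p = 3.02e-27), -0.90 ± 0.18 and -0.57 ± 0.14, each called with any 1 library left out. On day 1 DDR-Sen was still above the untreated libraries at 1176 and 1376 (0.85 ± 0.14) and PMD-Sen below at 309 and 319.7 (-1.17 ± 0.16), a difference of -2.02 ± 0.21 for PMD-Sen minus DDR-Sen (adjusted p = 2.84e-19). From day 4 on its changes stayed within 0.42 of 0 except on day 8 of Ca2+-Sen (1115 and 1190.1, 0.70 ± 0.12).

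ADAMTS12 fell on days 0 and 1 of PMD-Sen, from 2951 and 3192 normalized reads untreated to 1625 and 1764 (-0.86 ± 0.11) and 1691 and 1886 (-0.78 ± 0.11). In Ca2+-Sen it was at 3451 and 3860.5 on day 0 (0.25 ± 0.10), a rise lost without the larger untreated library (0.20) or the larger treated one (0.17), and PMD-Sen minus Ca2+-Sen was -1.11 ± 0.15 on that day. From day 4 on its calls were rises, on days 4, 6 and 8 of PMD-Sen (0.36 ± 0.09, 0.57 ± 0.12 and 0.41 ± 0.13), days 4 and 8 of Ca2+-Sen (0.26 ± 0.09 and 0.27 ± 0.09) and days 6 and 8 of DDR-Sen (0.44 ± 0.09 and 0.47 ± 0.10). Those of PMD-Sen days 4 and 6 and of DDR-Sen held with any 1 library left out, and the other 3 did not. In RS its libraries stood at 3283 and 7343 (0.79 ± 0.35, not called).

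ADAMTS19, an orphan protease whose substrates are little known, went from low to high with every inducer. Its libraries stood at 1496 and 1550.4 normalized reads untreated and at 285 and 412 in PMD-Sen, 384 and 511 in Ca2+-Sen and 496 and 684 in DDR-Sen on day 0, all 6 below. The falls were -2.13 ± 0.17, -1.77 ± 0.15 and -1.37 ± 0.16. In PMD-Sen it then went through 443 and 528 (day 1), 773 and 1022 (day 2), 1320.0 and 1853 (day 3), 2325 and 2988 (day 4) and 3657 and 3685 (day 6) to 5493 and 5949 on day 16. On that day Ca2+-Sen held 5938 and 6008 and DDR-Sen 6951 and 8360.4, and RS held 6108 and 10749, all 8 libraries above the untreated ones. The rises were 1.91 ± 0.14 (adjusted p = 7.8e-40), 1.97 ± 0.09 (adjusted p = 1.31e-114), 2.33 ± 0.13 (adjusted p = 3.35e-72) and 2.47 ± 0.28 (adjusted p = 2.34e-16). All 20 calls of this gene were made with any 1 library left out. An antisense gene, ADAMTS19-AS1, overlaps it, and whether the counting used strand is not given in the sources used here.

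The crossing from low to high came at different times. On day 1 ADAMTS19 was called lower in PMD-Sen (-1.64 ± 0.14) and Ca2+-Sen (-1.48 ± 0.12) and not called in DDR-Sen (-0.32 ± 0.14), where it exceeded PMD-Sen by 1.32 ± 0.20. On day 2 it was still lower in PMD-Sen (-0.76 ± 0.14) but not in Ca2+-Sen (0.04 ± 0.12), and on day 3 it was called higher in DDR-Sen alone (0.76 ± 0.11), above PMD-Sen by a called difference of 0.70. On day 8 Ca2+-Sen led, at 7868 and 7939, above PMD-Sen by 0.92 ± 0.18 and DDR-Sen by 0.57 ± 0.14.

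ADAMTS6 and ADAMTS10, which bear on fibrillin microfibrils, moved apart on day 8 of Ca2+-Sen, on day 16 of PMD-Sen and DDR-Sen and in RS. ADAMTS6 stood at 106 and 236 normalized reads untreated and fell to 23.9 and 45.6 on day 16 of PMD-Sen (-2.30 ± 0.48), 43.6 and 56.8 of DDR-Sen (-1.78 ± 0.40) and 14.2 and 62.6 in RS (-2.16 ± 0.69). Its untreated libraries differed by 2.22-fold, and without the larger one these values were -1.61, -1.09 and -1.48, of which only the first was still called. The call in RS was also lost without the larger RS library. ADAMTS10 was called higher on day 16 of PMD-Sen (143 and 222 against 73.5 and 88.6 untreated, 1.17 ± 0.36), of DDR-Sen (166 and 220.0, 1.25 ± 0.32) and in RS (159.5 and 219, 1.22 ± 0.34). The call of PMD-Sen was lost without the smaller untreated library (1.04) or the smaller treated one. That of RS was lost without the smaller RS library (0.97). ADAMTS10 also rose on day 0 (1.06) and day 8 (1.44) of Ca2+-Sen and day 1 of DDR-Sen (1.21). These rises held with any 1 library left out, and that of DDR-Sen day 6 (0.86) did not. ADAMTS6 rose on day 0 of PMD-Sen (1.07), a call lost without the smaller untreated library. It fell on day 8 of Ca2+-Sen (-1.75) and on days 1, 6 and 8 of DDR-Sen (-1.19, -1.80 and -1.57). Each of these falls was lost without the larger untreated library.

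Of the inhibitors, TIMP1 rose on day 1 with all 3 inducers, most with membrane damage and doxorubicin. Its untreated libraries held 20372 and 20735 normalized reads and those of day 1 of PMD-Sen 43510.0 and 48989, a rise of 2.25-fold (1.17 ± 0.08, adjusted p = 8.48e-43). DDR-Sen reached a mean of 44113 (1.10 ± 0.08), whose single libraries could not be resolved, and Ca2+-Sen 25047 and 25753 (0.31 ± 0.07). In DDR-Sen TIMP1 was called higher on all 8 days, and in PMD-Sen on days 1, 2, 3 and 16. In Ca2+-Sen it fell under both untreated libraries on day 16, to 12714 and 13252 (-0.66 ± 0.07, adjusted p = 8.67e-20), a call made with any 1 library left out. PMD-Sen, at 25852 and 26884, was 1.02 ± 0.14 higher on that day, and DDR-Sen, at 26146 and 27638, 1.05 ± 0.12 higher. The rise on day 16 of PMD-Sen itself (0.36 ± 0.12) was lost without either untreated library (0.37 and 0.34) and without the smaller treated one. In RS the libraries stood at 21714 and 37536, both above the untreated ones (0.53 ± 0.27, not called).

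TIMP2, which takes part with MMP14 in the activation of MMP2, fell on day 0 of PMD-Sen to 13599.6 and 14816 normalized reads from 21935 and 23117 untreated (-0.67 ± 0.09, adjusted p = 7.77e-12). It fell less on day 0 of Ca2+-Sen (18736 and 19342, -0.24 ± 0.07), a call lost without the larger untreated library (-0.20), and measured 0.22 ± 0.09 in DDR-Sen. All later values lay within 0.35 of 0 on the log2 scale. TIMP3, the inhibitor bound to the matrix, rose on day 0 of DDR-Sen to 48549 and 57114 from 20212 and 20224 (1.39 ± 0.11, adjusted p = 3.66e-35). On the next day it was back at 16736 and 18722 (-0.19 ± 0.09). In RS it fell to 12374 and 12636 (-0.69 ± 0.13), under both untreated libraries, while on day 16 it measured 0.17 ± 0.12 in PMD-Sen and 0.03 ± 0.10 in DDR-Sen and was called lower in Ca2+-Sen (-0.28 ± 0.07). TIMP4, the least abundant of the family here, was called on day 1 of Ca2+-Sen and on day 0 with all 3 inducers, at 136 and 137 in PMD-Sen (1.78 ± 0.40), 182 and 201.04 in Ca2+-Sen (2.27 ± 0.33) and 99.4 and 118 in DDR-Sen (1.46 ± 0.37) against 36.0 and 43.1 untreated. TIMP1, TIMP3 and TIMP4 each lie within a synapsin gene (SYN1, SYN3 and SYN2), so reads of the host genes could be counted in part with them if strand was not used.

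**Figure D4:**
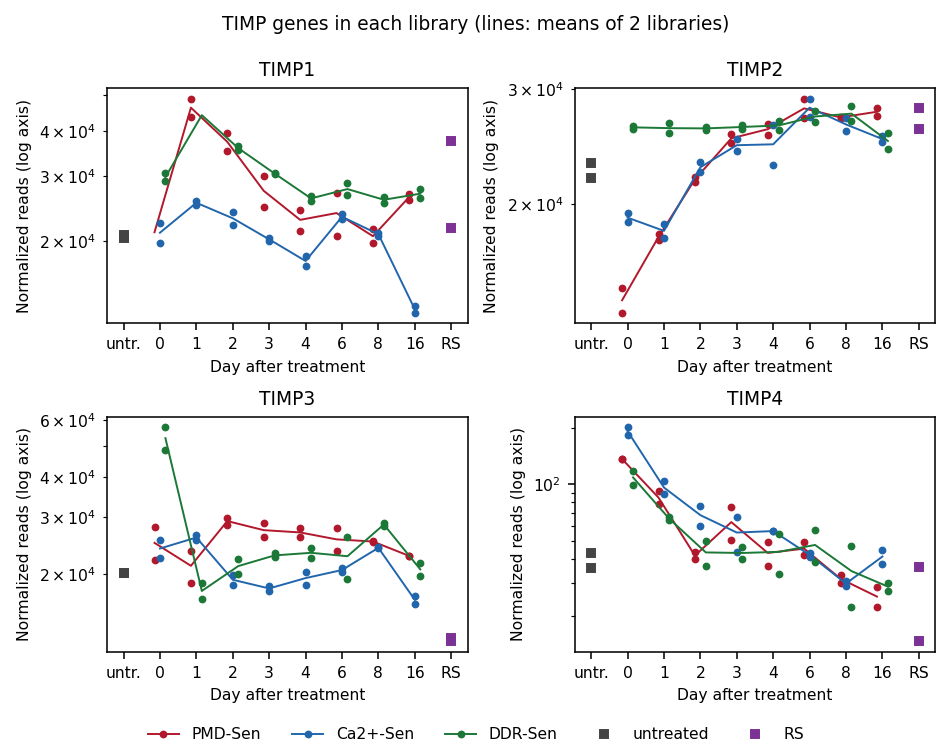
Normalized reads (log axis) of the 4 TIMP genes by day after the wash, with points for the single libraries, lines for the group levels, and the untreated and RS libraries at the sides. TIMP1 of Ca2+-Sen day 16 (12714 and 13252) is the lowest TIMP1 group, and the single libraries of TIMP1 in PMD-Sen day 0 and DDR-Sen day 1 are not drawn.

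A difference between 2 treated groups was tested with the error of the untreated pair in both terms. The counts without that error are given where they differ by over 1.5 times. With that error kept, each pair of inducers had its most member calls on day 0, when cells had just been washed. The share of all genes called was highest then too, and for PMD-Sen against Ca2+-Sen it exceeded the share of members (32.1%). Of the 28 members, 9 differed between PMD-Sen and Ca2+-Sen (all genes 38.6%), 14 between PMD-Sen and DDR-Sen (28.6%) and 15 between Ca2+-Sen and DDR-Sen (37.1%). Both of the latter leaned to DDR-Sen, which was higher for 11 of 14 and 13 of 15 of the members called, with TIMP1, TIMP2, TIMP3, MMP2 and MMP14 among them in both. The median difference of the members was -0.53 for PMD-Sen minus DDR-Sen and -0.58 for Ca2+-Sen minus DDR-Sen, where the median of all genes was 0.02 and 0.00. ADAMTS15 showed the largest of these differences, with 201.5 and 396 normalized reads in DDR-Sen, 38.9 and 44.6 in PMD-Sen and 34.3 and 46.7 in Ca2+-Sen (-2.84 ± 0.51 and -2.87 ± 0.48, DDR-Sen subtracted). MMP15 was 2.63 ± 0.40 higher in PMD-Sen than in Ca2+-Sen, with libraries at 249.7 and 296 and 40.4 and 48.3.

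**Figure D5:**
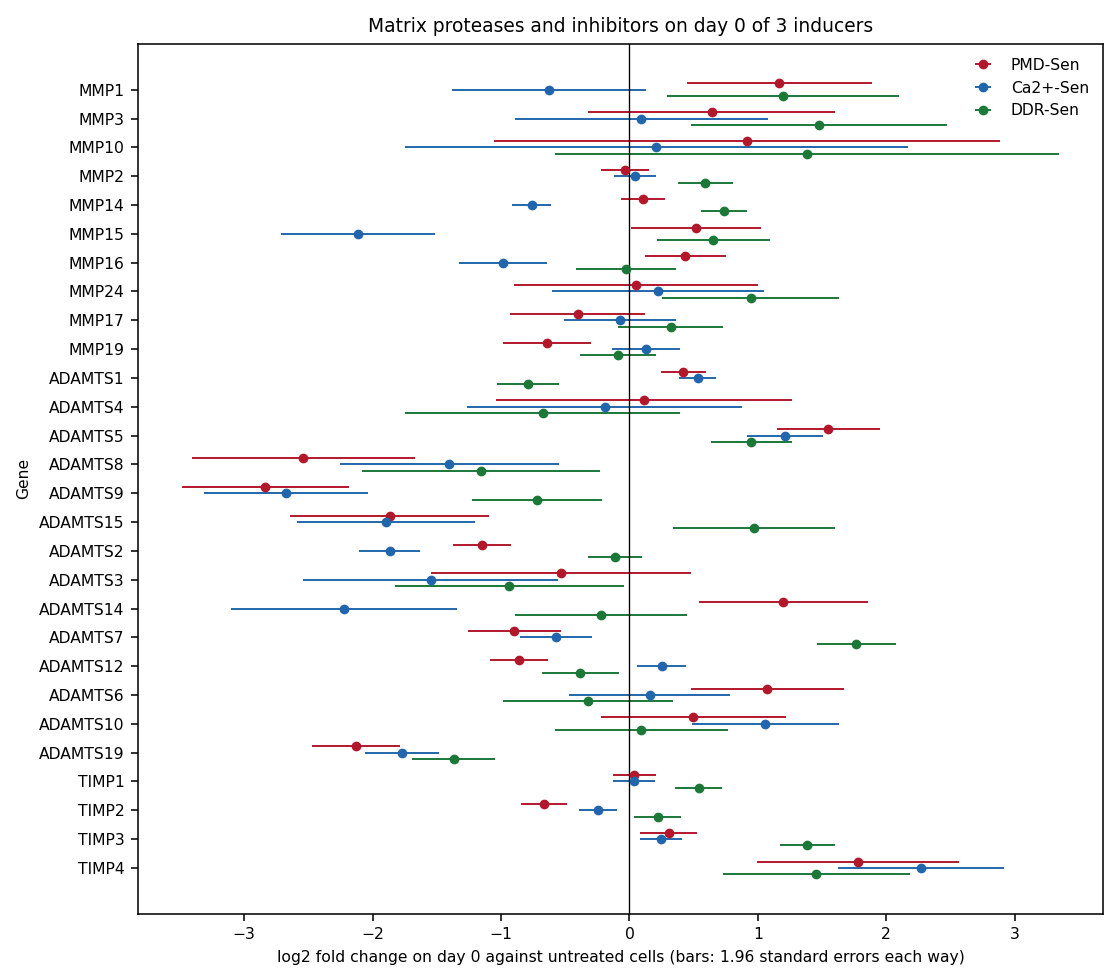
Log2 fold change against untreated cells (axis) of the tested members on day 0 of PMD-Sen, Ca2+-Sen and DDR-Sen, with bars for the 95% interval. ADAMTS7, ADAMTS15 and ADAMTS14 show inducers on opposite sides of 0, and TIMP4 and ADAMTS5 stand above 0 with all 3.

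On day 1 the counts were 7 for PMD-Sen against Ca2+-Sen (all genes 4.42%), 12 for PMD-Sen against DDR-Sen (12.3%) and 10 for Ca2+-Sen against DDR-Sen (7.74%), the first being 11 with the untreated error removed. On day 2 PMD-Sen differed in 6 members from Ca2+-Sen (2.38%) and in 7 from DDR-Sen (7.31%), or 12 and 15 with the untreated error removed. All other pairs from day 2 to day 6 differed in at most 3, where 0.0134% to 3.22% of all genes differed. On day 8 Ca2+-Sen stood apart again, with 7 members different from PMD-Sen (3.28%) and 9 from DDR-Sen (4.88%). PMD-Sen and DDR-Sen differed in none by the adjusted Wald test (all genes 0.812%), with 1 (TIMP1) at an unadjusted p under 0.05. With the untreated error removed the counts of Ca2+-Sen on day 8 were 11 and 15. Ca2+-Sen was the higher for MMP2, ADAMTS1, ADAMTS7, ADAMTS9 and ADAMTS19 and the lower for MMP1 against both. ADAMTS9 exceeded PMD-Sen by 1.28 ± 0.31 and DDR-Sen by 1.26 ± 0.25. CD14 was at its highest in the same group, as given above.

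On day 16 PMD-Sen and Ca2+-Sen differed in 3 members (all genes 2.72%), TIMP1, TIMP3 and ADAMTS15, all higher in PMD-Sen. Ca2+-Sen and DDR-Sen differed in 5 (6.38%), MMP17 being higher in Ca2+-Sen and TIMP1, ADAMTS5, MMP15 and ADAMTS15 lower. PMD-Sen and DDR-Sen differed in 0 by the adjusted Wald test (0.195%), with 4 members at an unadjusted p under 0.05 (MMP2, ADAMTS19, ADAMTS5 and MMP15). With the untreated error removed the 3 counts of day 16 were 9, 10 and 1. Intervals of PMD-Sen minus DDR-Sen on that day (95%) ran from -1.40 to -0.42 for ADAMTS5 and from -2.31 to 2.01 for MMP1, so a difference of several-fold would not have been seen for the latter.

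Within an inducer, day 16 differed from day 0 for 13 members in PMD-Sen (all genes 28.3%), 17 in Ca2+-Sen (34.5%) and 15 in DDR-Sen (12.6%). In each of the 3 courses ADAMTS8, ADAMTS9 and ADAMTS19 were higher on day 16 than on day 0 and ADAMTS6 and TIMP4 lower. ADAMTS8 gained most in PMD-Sen, 4.60 ± 0.82 on the log2 scale. MMP2 and TIMP3 were lower on day 16 in Ca2+-Sen and DDR-Sen.

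Against RS, day 16 differed for 1 member in PMD-Sen (all genes 0.685%), 2 in Ca2+-Sen (4.25%) and 1 in DDR-Sen (0.148%). TIMP3 was lower in RS than in PMD-Sen by 0.86 ± 0.18 and than in DDR-Sen by 0.73 ± 0.17. TIMP1 was higher in RS than in Ca2+-Sen by 1.19 ± 0.28, and MMP17 was lower by 1.59 ± 0.44. With the untreated error removed these counts were 4, 10 and 1. For MMP1 the interval of the difference between day 16 of DDR-Sen and RS ran from -3.54 to 2.77.

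The 17 members under the threshold were not tested. Just inside it were ADAMTS4, with a mean level of 25.3 over all groups, and ADAMTS3 with 32.4, and just outside MMP12 with 7.45 and MMP21 with 7.42. Several of these had their highest level on day 0. MMP13, collagenase-3, had 27 and 26 reads on day 0 of Ca2+-Sen and none in either untreated library, which allows up to 3 reads in each, and 88 reads in all over 52 libraries. ADAMTS17 had 25 and 39 reads in the same group and none in the untreated libraries. MMP25 reached 16.3 normalized reads and MMP21 16.0 in that group, and MMP12, macrophage elastase, 24.6 on day 0 of DDR-Sen. ADAMTS16 had 19 reads in 1 RS library and 1 in the other. MMP9, the gelatinase of leukocytes and inflamed tissue, gave 27 reads over 52 libraries, with a highest level of 2.06 on day 0 of DDR-Sen. The highest levels of the others were 6.45 (ADAMTS20), 5.22 (MMP8), 2.31 (MMP20), 2.09 (MMP26), 1.85 (MMP7), 1.72 (MMP27), 1.43 (ADAMTS18), 0.714 (ADAMTS13) and 0.597 (MMP28), and MMP11 was listed at 0 in every table.

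Other genes of matrix turnover were counted in the same way. Of 30 tested genes of a list of 36 other extracellular proteases, 13 were called higher and 5 lower on day 16 of PMD-Sen, 9 and 4 in Ca2+-Sen, 12 and 4 in DDR-Sen, and 9 and 2 in RS, with a median log2 fold change of 0.37, 0.08, 0.26 and 0.22. In these comparisons 9.63% and 11.5%, 5.79% and 6.08%, 13.2% and 16.7%, and 11.6% and 11.5% of all tested genes were called higher and lower, and the median of all genes lay within 0.02 of 0. PCSK6, a proprotein convertase, went from 7.64 to 87.2 normalized reads in RS (3.52 ± 0.82) and PAPPA2, which cleaves binding proteins of insulin-like growth factors, from 5.44 to 66.8 (3.62 ± 0.88), whereas HTRA3, a secreted serine protease, fell from 243 to 97.2 on day 16 of PMD-Sen (-1.32 ± 0.32). TLL2, a protease of the tolloid family, was at 2.39 ± 0.86 on day 16 of DDR-Sen.

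Of 18 tested genes of 25 other protease inhibitors, 6 were called higher and 2 lower on day 16 of PMD-Sen, 4 and 5 in Ca2+-Sen, 9 and 3 in DDR-Sen, and 10 and 1 in RS, against the same shares of all genes. The median log2 fold change of these inhibitors was 0.51, 0.20, 0.82 and 1.55. A2M, a broad inhibitor that traps proteases of all classes, went from 1029 to 6209.9 normalized reads on day 16 of PMD-Sen (2.59 ± 0.69), and TFPI2, an inhibitor of serine proteases in the matrix, from 4067 to 915 (-2.15 ± 0.72). The cystatin CST1 rose by 1.94 ± 0.46, 2.21 ± 0.40 and 2.29 ± 0.69 in PMD-Sen, DDR-Sen and RS, CST4 by 2.59 ± 0.94 in DDR-Sen, and SERPINI1, an inhibitor of tissue plasminogen activator, by 2.35 ± 0.33 in DDR-Sen. CST1 and CST4 are close paralogs, and the division of reads between them is uncertain. Of 5 tested ADAMTS-like genes of 7, which lack the protease domain, 1 was called higher and none lower on day 16 of PMD-Sen, 1 lower in Ca2+-Sen, 1 higher and 2 lower in DDR-Sen and 1 lower in RS, with medians of 0.12, 0.13, -0.03 and 0.04. PAPLN rose by 1.33 ± 0.38 in PMD-Sen, while ADAMTSL1 (-0.74 ± 0.22) and THSD4 (-0.51 ± 0.14) fell in DDR-Sen.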

How the data were processed

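Poly(A) RNA of 52 libraries of WI-38 cells (26 groups of 2) was sequenced as paired-end reads. The submitters' processing notes name Trim Galore, HISAT2, HTSeq, featureCounts and DESeq2 and the build GRCh38 (hg38), and the versions are not given in the sources used here. The authors deposited 25 tables, each comparing a treated day or RS with the same 2 untreated libraries. For every gene these hold the mean normalized read count over the 4 libraries (a signal, divided by the size factors of the authors), the log2 fold change, the standard error of it, and p-values of DESeq2's Wald test. The log2 fold change, its standard error and the unadjusted p-value deposited by the authors were used as the fit of the data, because the tables hold no column of single libraries. Their adjusted p and the Wald statistic, a deposited score, were not used, and no column belonged to another sample (0 such columns).

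Levels were put on 1 scale with the untreated level of 8645 genes above 200 normalized reads in every table. Genes with a mean level of at least 10 over the 26 groups were tested (14898), with Benjamini-Hochberg adjustment within each comparison at 0.05. Differences between treated groups were tested by dividing the gap between both log2 fold changes by a standard error pooled from both (root of the sum of squares). For members, the whole reads of each library were recovered, since a deposited mean is a sum of whole reads divided by size factors: 698 of 700 cases gave a pair of counts whose log2 fold change met the deposited one within 2.1e-05. Where more than 1 pair met the mean (91 cases), the log2 fold change chose among them, and the next best was at least 9.03 times worse. The 2 cases left (TIMP1 in PMD-Sen day 0 and DDR-Sen day 1) have group levels only. Counted reads per library were computed from the size factors recovered in the same way. Single libraries carry no replicate number and are called larger or smaller by their counted reads. Intervals are 95%, and those for counts cover counting error only.

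The members and lists were chosen with earlier results of these data known. All members are accounted for: values by group are given for tested members with a mean level of at least 100 or a called log2 fold change of at least 1, and from each other list the 3 called genes with the largest change in RS, DDR-Sen day 16 or PMD-Sen day 16. A count model on single libraries had been planned for the case that tables held counts. The alternatives were another filter or none, scaling by the summed level, a floor on the standard error, removal of the untreated libraries' error from differences, and leaving out each library. For the last, the 3 remaining libraries were refitted with the dispersion of the 4. The code was tested on simulated data. Sequences and positions came from RefSeq (GRCh38.p14), and exon lengths from GENCODE v29. The scripts ran under SciPy 1.17.1, Matplotlib 3.10.9, pandas 2.3.3, NumPy 2.4.6 and Python 3.11.15.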

Additional observations from a re-analysis of the deposited data

Results flagged for a closer look

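The log2 fold changes of 2 inducers on the same day were set against each other by the Wald test of the difference, and members were picked out where the difference was called and each inducer was itself called on its own side of 0. All values are the first inducer minus the second on the log2 scale, the comparisons share the untreated libraries, and 24 pairs of inducers and days were tested. For PMD-Sen minus Ca2+-Sen on day 0 these were ADAMTS14 (3.42), MMP16 (1.42) and ADAMTS12 (-1.11). For PMD-Sen minus DDR-Sen on day 0 they were ADAMTS15 (-2.84), ADAMTS7 (-2.66) and ADAMTS1 (1.21). For Ca2+-Sen minus DDR-Sen on day 0 they were ADAMTS15 (-2.87), MMP15 (-2.77), ADAMTS7 (-2.34), MMP14 (-1.50), ADAMTS1 (1.32) and ADAMTS12 (0.637).

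After day 0 the members with inducers on opposite sides were fewer. ADAMTS7 differed between PMD-Sen and DDR-Sen by -2.02 on day 1 and -1.41 on day 2, and between Ca2+-Sen and DDR-Sen by -1.46 on day 1. TIMP2 differed by -0.556 between PMD-Sen and DDR-Sen and by -0.525 between Ca2+-Sen and DDR-Sen on day 1. TIMP1 differed between Ca2+-Sen and DDR-Sen by -0.569 on day 4 and by -1.05 on day 16, and between PMD-Sen and Ca2+-Sen by 1.02 on day 16. Among these, the call against untreated cells was lost when 1 library or another was left out for ADAMTS15, MMP15 and ADAMTS12 on day 0 of DDR-Sen (0.97, 0.65 and -0.38), MMP16 on day 0 of PMD-Sen (0.44), ADAMTS12 on day 0 of Ca2+-Sen (0.25), TIMP2 on day 1 and ADAMTS7 on day 2 of DDR-Sen (0.21 and 0.50), TIMP1 on day 4 of Ca2+-Sen (-0.22) and TIMP1 on day 16 of PMD-Sen (0.36). TIMP1 on day 16 of Ca2+-Sen against DDR-Sen, and ADAMTS7 on days 0 and 1 and MMP14, ADAMTS14 and ADAMTS1 on day 0, had no such loss. With 2 libraries in a group, no library could be tested for standing apart from its group.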

How the results depend on the processing

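No direction of a called member turned under any alternative run, and turns among members not called were not counted. Taking the error of the shared untreated libraries out of the differences, which by construction makes their standard errors smaller, raised the calls between inducers on the same day from 114 to 190, with 11 for PMD-Sen against Ca2+-Sen on day 1, 12 on day 2, 11 on day 8 and 9 on day 16, 15 for Ca2+-Sen against DDR-Sen on day 8 and 10 on day 16, and 15 for PMD-Sen against DDR-Sen on day 2 and 1 on day 16. It raised those of day 16 against RS from 4 to 15, with 4 for PMD-Sen and 10 for Ca2+-Sen. A floor on the standard error left 0 calls of DDR-Sen day 16 against RS (1 without the floor). The cause was not tested beyond this. Of the 289 calls against untreated cells, no filter on low genes lost 25, the floor 10 and scaling by the summed level 3 (7 gained), and a mean level of at least 100 gained 10 of 550.

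Leaving out 1 library of the 4, with the threshold on p of the comparison kept, gave 228 to 255 calls of 289, with the 1 call that could not be refitted (TIMP1 in DDR-Sen day 1) counted as kept. Of the 288 refitted calls it lost 57 without the smaller untreated library, 64 without the larger, 45 without the larger treated library and 60 without the smaller, and 175 calls were made under all 4 omissions. Counts by group ran from 14 to 16 (PMD-Sen day 0), 15 to 18 (Ca2+-Sen day 0), 11 to 13 (DDR-Sen day 0), 15 to 16 (PMD-Sen day 1), 12 to 14 (Ca2+-Sen day 1), 7 to 13 (DDR-Sen day 1), 17 to 20 (Ca2+-Sen day 8), 8 to 12 (PMD-Sen day 16), 10 to 11 (Ca2+-Sen day 16), 12 to 15 (DDR-Sen day 16) and 7 to 11 (RS). No paired analysis was possible because the single libraries, recovered from the tables, carry no replicate number. The 17 members under a mean level of 10 were not tested, and the 2 untreated libraries were the shallowest.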
